A study of Mus musculus with 7 samples.

Results

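The genes of the matrix metalloproteinases (Mmp), the ADAMTS proteases (Adamts) and the tissue inhibitors of metalloproteinases (Timp) were read in mouse pancreatic islets on whole-transcript arrays. Members were chosen by a rule on gene symbols. They comprised 44 of 22180 genes for which a single-gene probe set gave a value, 22 of them Mmp, 18 Adamts and 4 Timp genes. Adamts2 and Mmp15 are not analysed here. The 4 arrays labelled Gata6 KO carried islet RNA of Gata6 flox/flox;Pdx1-Cre mice, and the 3 control arrays islet RNA of Gata6 flox/flox mice. Both groups therefore carried the floxed alleles, only the first carried Cre, and effects of Cre and of the Gata6 deletion cannot be told apart. The Pdx1 promoter drives Cre in the pancreatic epithelium, so acinar and duct cells as well as endocrine cells can carry the deletion, whereas fibroblasts, vessels and blood cells are not its targets. The RNA of each array came from a pool of 3 mice, 2 months old, so replicates are pools, and islets were isolated with collagenase.

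Matrix metalloproteinases are zinc-dependent enzymes that cut collagens, proteoglycans and other proteins outside the cell, and they are made as inactive proenzymes. ADAMTS proteases are secreted relatives that bind matrix through thrombospondin repeats and cut mainly proteoglycans and procollagens. TIMPs block matrix metalloproteinases by binding the active site, and TIMP3 also blocks several ADAMTS proteases. In the pancreas, stromal, vascular and immune cells are the usual sources of many of these proteins, and in the islet they take part in remodelling the capillary basement membrane and in islet development.

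The signal of Gata6 itself went against the label, at 5.01 to 5.41 on arrays labelled Gata6 KO and 4.60 to 4.83 on control arrays (log2), with a difference of 0.54 (SE 0.20, limma adjusted p = 0.0622, exact two-sided permutation p = 0.0571). The sources used here do not give which exons were floxed or where the probes lie, so that directions below are those of the labels and "labelled KO arrays" stands for them. The median log2 difference over all 22180 genes was 0.17, labelled KO minus control, and the change of each gene below is its log2 difference less this value. Its SE and its adjusted p are those of the difference before subtraction, whereas fold values are those of the change after it. Islet endocrine markers fell in 14 of 15 genes, with a mean log2 signal of 4.97 to 6.77 on labelled KO arrays and 8.30 to 8.82 on control arrays, and 8 of 14 acinar markers rose (11.31 to 11.51 against 10.56 to 10.71). Xist was low on array 3 of each group (2.15 on the labelled KO array and 1.34 on the control array) and at 5.02 or more on the other arrays, so that low Xist arrays were in both groups; the sex of the mice is not in the labels. In bulk islets, fewer cells of a type and less RNA per cell cannot be told apart.

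The families as a whole changed about as often as other genes. Of the 44 members 9 rose and 1 fell (22.7%) in limma, at a threshold of 0.05 on p adjusted by Benjamini-Hochberg over all genes, against 24.7% of all genes. By direction, 17.4% of all genes were called higher and 7.36% lower. The counts of every list and class in this report are to be read beside these shares. The members that rose were Timp2, Adamts5, Mmp23, Mmp19, Mmp3, Mmp2, Adamts12, Adamts7 and Adamts15, and Timp3 fell. The median change of the 44 members was 0.08, against 0.00 for all genes after the same subtraction. The groups did not overlap for 10 members (22.7%), all of them higher on labelled KO arrays, against 34.3% of all genes in either direction, 24.4% higher and 9.96% lower. After centring each array on its median, 3 members were called higher (Timp2, Adamts5 and Mmp23) and 2 lower (Timp3 and Adamts18), and the share of higher calls among all called genes was 40.3%, against 70.2% without centring. Without control array 1 the counts were 3 higher and 0 lower (with 14.7% of all genes called), and without control array 2 they were 4 and 1 (16.2%). None of the 10 called members changed its sign under either rescaling.

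**Figure D1:**
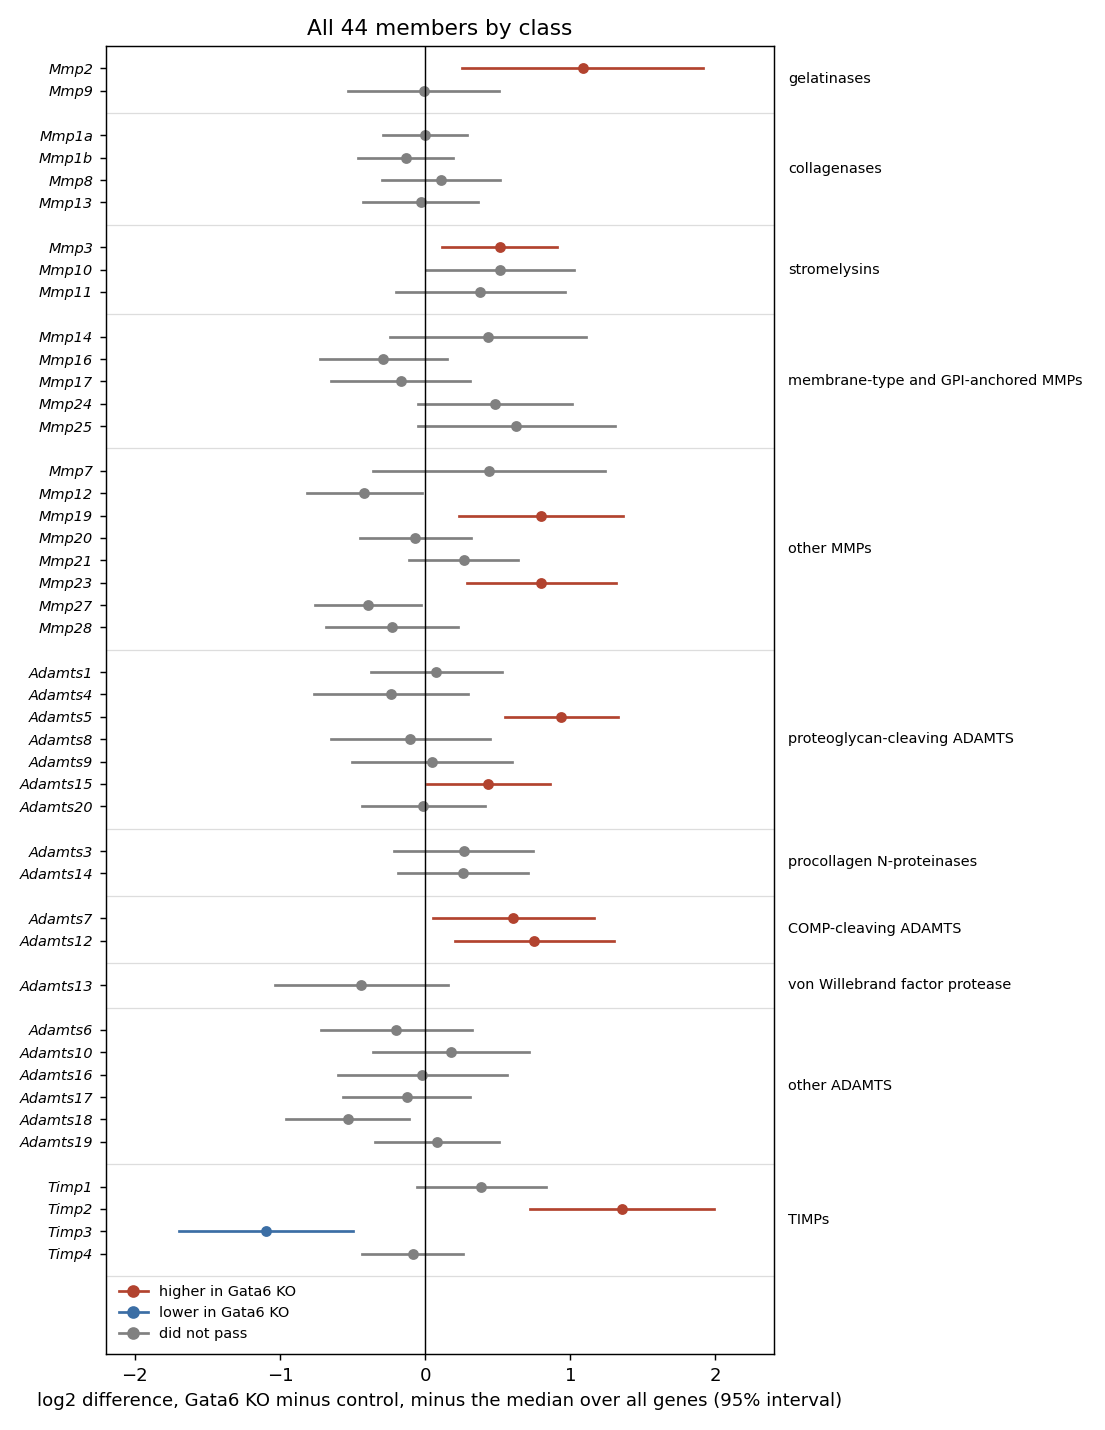
Log2 difference (labelled Gata6 KO minus control, minus the median over all genes) of the 44 members by class, with 95% intervals; red marks members called higher, blue the member called lower and grey those that did not pass. Timp2 lies farthest to the right (1.35) and Timp3 farthest to the left (-1.10), and the test itself is on the difference before subtraction.

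Most members gave low signals. The mean log2 signal of 29 of the 44 lay below the median over all genes (2.38), a range in which array signals approach background and differences are compressed. The 4 called members with signals above that median were Timp2, Timp3, Mmp2 and Mmp19, and all of the called Adamts genes lay below it. Detection calls were not used here, so whether the lowest signals exceed background is not known.

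The inhibitors held both ends of the range of changes. Timp2, a broad inhibitor that also bridges the membrane protease MMP14 and the proenzyme of MMP2, measured 5.57, 5.09, 5.33 and 4.12 on labelled KO arrays 1 to 4, against 3.62, 3.62 and 3.29 on control arrays. Every labelled KO array lay above every control array, and array 4 was the lowest of its group. The means were 5.03 ± 0.63 (SD, n = 4) and 3.51 ± 0.19 (SD, n = 3). The change was 1.35 (SE 0.30, adjusted p = 0.00229), or 2.56-fold, and the call held under all 17 alternatives, with adjusted p up to 0.0148.

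Timp3, which unlike the other TIMPs binds to the matrix and also inhibits ADAM17 and several ADAMTS proteases, measured 4.79, 4.47, 5.22 and 4.04 on labelled KO arrays, against 5.70, 5.11 and 5.88 on control arrays. The groups overlapped: labelled KO array 3 lay above control array 2. The change was -1.10 (SE 0.28, adjusted p = 0.0261), or 0.468-fold after subtraction of the median over all genes. Timp3 no longer passed when control array 1 (adjusted p = 0.101), control array 3 (adjusted p = 0.114), labelled KO array 2 (adjusted p = 0.0619) or labelled KO array 4 (adjusted p = 0.0556) was left out.

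Timp1, an inhibitor induced in injury and inflammation, measured 1.94, 1.97, 2.01 and 1.99 on labelled KO arrays, against 1.06, 1.82 and 1.38 on control arrays. The groups did not overlap, but the change of 0.39 (SE 0.21) did not pass (adjusted p = 0.0660). Without control array 2 it did (adjusted p = 0.0332), and without control array 1 the adjusted p was 0.299. Timp4, known mainly from heart and fat tissue, measured 0.83 to 1.09 on labelled KO arrays and 0.69 to 1.20 on control arrays, with a change of -0.09 and a 95% interval from -0.43 to 0.26. Its difference before subtraction was 0.08, so the sign depends on the scaling. Timp1, Timp3 and Timp4 lie inside the synapsin genes Syn1, Syn3 and Syn2, which encode vesicle proteins of neurons and endocrine cells. Syn1 measured 3.60 to 3.88 on labelled KO arrays and 4.56 to 5.42 on control arrays, a fall of the host gene (change -1.43, SE 0.23, adjusted p = 0.00140). Syn3, which holds Timp3, did not pass (change -0.11, adjusted p = 0.897), nor did Syn2 (change -0.58, adjusted p = 0.244). Timp2 overlaps Cep295nl, whose change was 0.63 (adjusted p = 0.0147), and the sources used here do not give the strand the probes read.

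**Figure D2:**
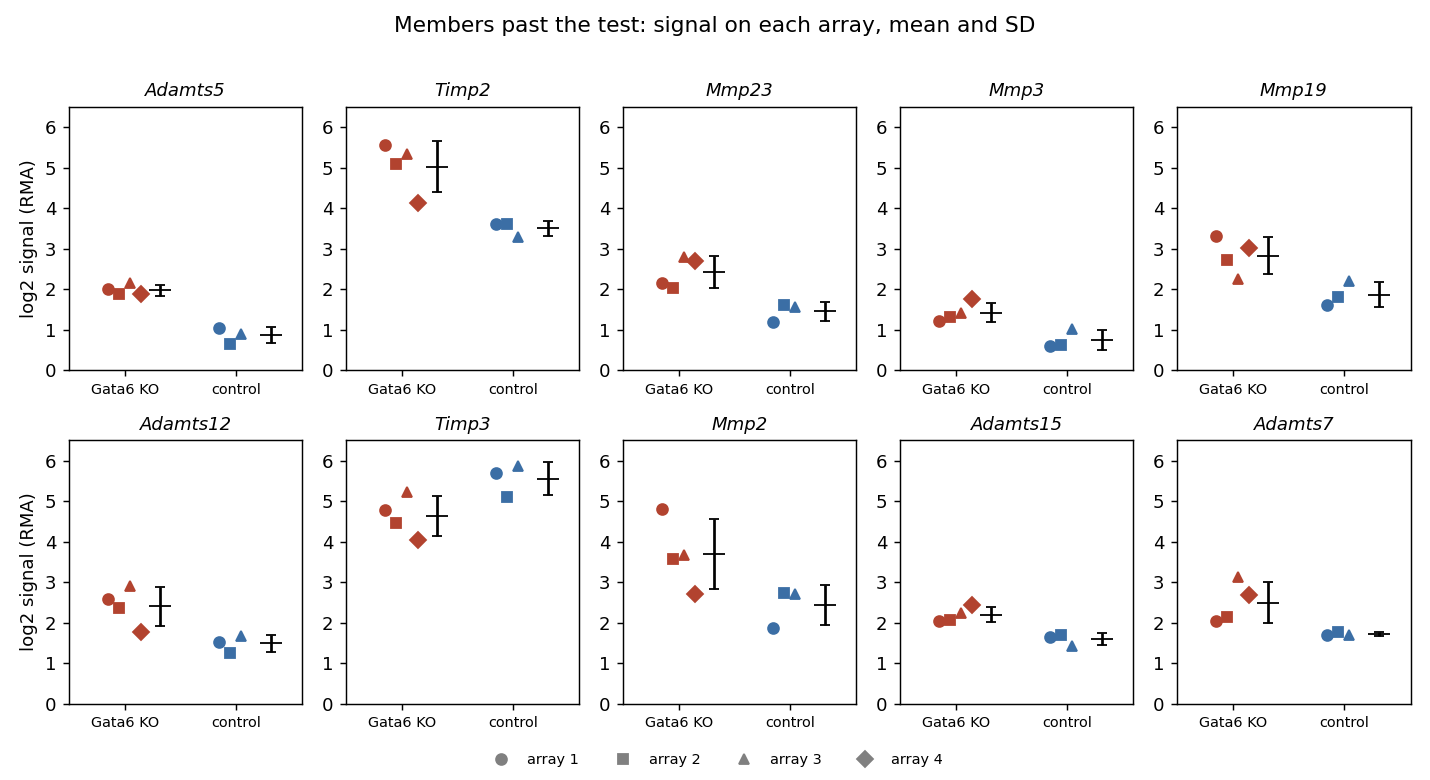
Log2 signal of the 10 called members on each array, labelled Gata6 KO to the left of control, with the mean and SD of each group. The groups overlap for Timp3 and Mmp2 and are apart for the other 8 genes, and the spread among labelled KO arrays is widest for Mmp2 (2.71 to 4.82).

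The gelatinases degrade denatured collagen and type IV collagen of basement membranes. Mmp2, the gelatinase of fibroblasts, measured 4.82, 3.56, 3.67 and 2.71 on labelled KO arrays, against 1.87, 2.74 and 2.70 on control arrays. Labelled KO array 4 lay within the control range and array 1 stood highest. The change was 1.09 (SE 0.39, adjusted p = 0.0300), or 2.12-fold. Mmp2 did not pass when any one of control arrays 1 (adjusted p = 0.151), 2 (adjusted p = 0.0541) and 3 (adjusted p = 0.0522) or labelled KO arrays 1 (adjusted p = 0.0585) and 3 (adjusted p = 0.0569) was left out, nor with arrays centred (adjusted p = 0.0886). Mmp9, the gelatinase of neutrophils and macrophages, measured 1.83, 2.21, 2.38 and 2.71 on labelled KO arrays and 1.81, 2.24 and 2.33 on control arrays. The groups overlapped almost fully, and the interval of the Mmp9 change ran from -0.53 to 0.51. Of 10 neutrophil markers 2 rose (Elane, change 0.71, and Csf3r, change 0.52) and 1 fell (Ngp, change -0.98), and their mean was 1.46 to 1.68 on labelled KO arrays and 1.48 to 1.56 on control arrays. The neutrophil markers S100a8 and S100a9 lay between 0.81 and 1.49 on labelled KO arrays and between 0.73 and 1.37 on control arrays.

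The membrane-type proteases act at the cell surface. Mmp14, which activates pro-MMP2, measured 4.87, 4.28, 4.14 and 3.26 on labelled KO arrays, against 3.32, 3.36 and 3.93 on control arrays. Its change of 0.43 (SE 0.32) did not pass (adjusted p = 0.183). Its difference before subtraction, 0.60, was 0.89 without labelled KO array 4, where it passed (adjusted p = 0.0229), and 0.36 without labelled KO array 1 (adjusted p = 0.399). Mmp24, a membrane protease known from neurons, measured 3.68, 3.64, 4.06 and 3.70 on labelled KO arrays and 2.77, 2.91 and 3.68 on control arrays. Control array 3 reached into the range of the labelled KO arrays, and the change of 0.48 (SE 0.25) did not pass (adjusted p = 0.0693). Without control array 3 it did (adjusted p = 0.0209), and without control array 1 the adjusted p was 0.274. Mmp16, Mmp17 and Mmp25 lay between 1.61 and 3.32 on labelled KO arrays and between 1.28 and 2.63 on control arrays, with adjusted p of 0.0811 or more.

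Among labelled KO arrays, Timp2 and Mmp2 took the same order as the mesenchymal markers, but among control arrays they did not. There the marker mean was highest on array 3, where Timp2 was lowest (3.29), and Mmp2 was highest on array 2 (2.74). The mean of the 13 mesenchymal and stellate cell markers was 4.63, 3.95, 4.04 and 3.25 on labelled KO arrays 1 to 4, against 3.07, 3.25 and 3.67 on control arrays. Array 1 was highest and array 4 lowest in the marker mean, in Timp2, in Mmp2 and in Mmp14. The same arrays were highest and lowest for macrophage markers (3.85, 3.16, 2.98 and 2.76 on labelled KO arrays, against 2.73, 2.51 and 2.46 on control arrays, with 4 of 11 higher and 0 lower) and for lymphoid markers (3.52, 2.81, 2.73 and 2.70 against 1.82, 1.86 and 1.84, with 4 of 7 higher and 0 lower). Of the mesenchymal markers 5 rose and 0 fell, among them Fap, a protease of activated fibroblasts (change 1.30, SE 0.19, adjusted p = 9.31e-05), and the platelet-derived growth factor receptor Pdgfra (change 1.05, SE 0.28, adjusted p = 0.00654). At an unadjusted p under 0.05 in limma the counts were 5 and 1. The 1 was Rgs5, lower on every labelled KO array than on any control array (change -1.16, SE 0.46, adjusted p = 0.128). The log2 of the summed mesenchymal level ranged from 7.56 to 9.37 on labelled KO arrays and from 7.73 to 8.45 on control arrays, and the lowest single marker value was 0.79 (Fap on control array 2). The part of any of these cell types in the changes of Timp2 and Mmp2 was not tested. For Timp3, the mean of the 11 endothelial markers was 4.16, 4.01, 4.07 and 3.70 on labelled KO arrays, against 4.53, 4.17 and 4.37 on control arrays, with 4 markers lower and 1 higher. The 4 were Esm1, Flt1, Kdr and Plvap, and the 1 was Egfl7 (change 1.01, limma adjusted p = 0.00105). The general endothelial markers Pecam1 (change 0.36, adjusted p = 0.216) and Cdh5 (change -0.14, adjusted p = 0.971) did not pass. Both Timp3 and the endothelial mean were lowest on labelled KO array 4, and labelled KO array 3, on which the islet endocrine mean was lowest (4.97), gave the highest Timp3 signal of its group (5.22). The part of endothelial cells in the fall of Timp3 was not tested.

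**Figure D3:**
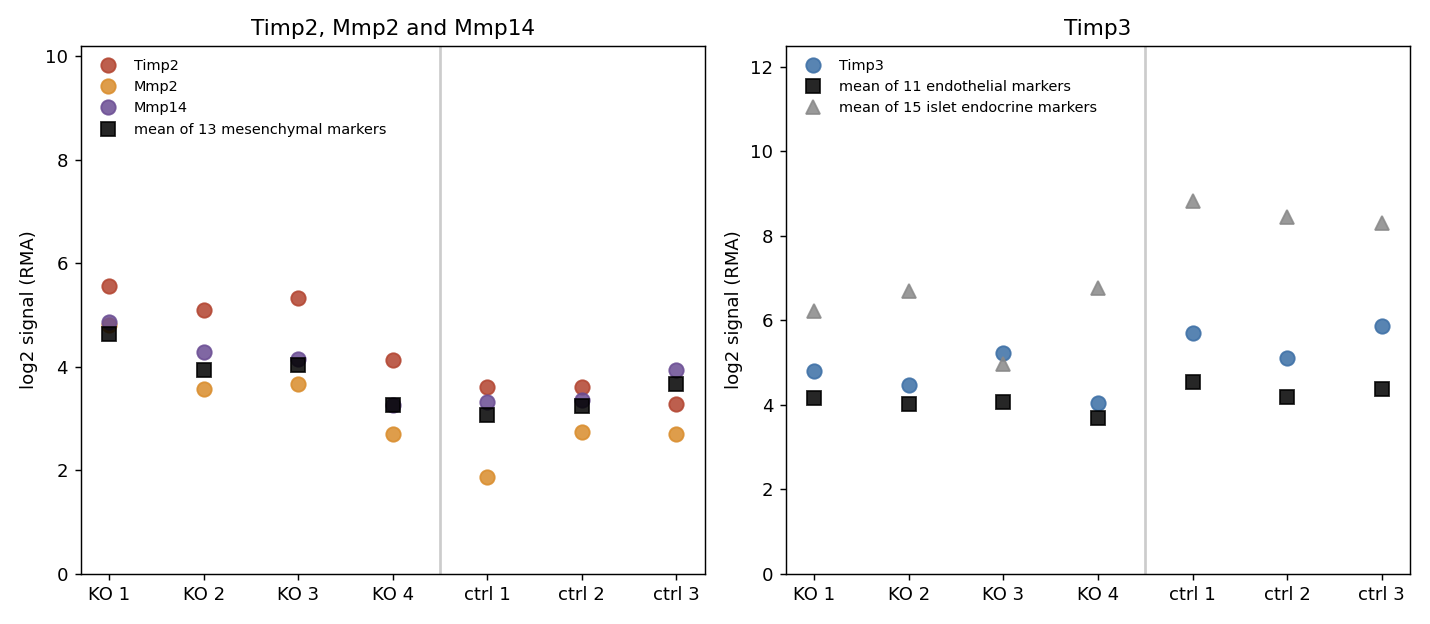
Log2 signal on each array of Timp2, Mmp2 and Mmp14 beside the mean of 13 mesenchymal markers (left), and of Timp3 beside the means of 11 endothelial and 15 islet endocrine markers (right), labelled Gata6 KO arrays before control arrays. Labelled KO array 1 is highest and array 4 lowest of its group for all of the points on the left.

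On chromosome 9, 10 Mmp genes follow each other with no other protein-coding gene between them, in the order Mmp13, Mmp12, Mmp1b, Mmp3, Mmp1a, Mmp10, Mmp8, Mmp27, Mmp20 and Mmp7 (RefSeq, GRCm38.p6). Collagenase, stromelysin and matrilysin genes of this cluster are known targets of AP-1, the Fos and Jun transcription factors. The 100 bases before each gene's start (RefSeq, GRCm38.p6) are shown because most of these promoters share 1 motif near the start. Capitals mark TGANTCA, the AP-1 motif, whose reverse complement has the same form, so that 1 search covers both strands; for Mmp12 and Mmp7, with several starts in the table, the start whose window holds the motif is shown.
Mmp13, chr9:7272414-7272513, + strand: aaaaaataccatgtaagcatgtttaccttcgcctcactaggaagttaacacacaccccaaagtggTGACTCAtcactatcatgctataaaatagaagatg
Mmp12, chr9:7347274-7347373, + strand: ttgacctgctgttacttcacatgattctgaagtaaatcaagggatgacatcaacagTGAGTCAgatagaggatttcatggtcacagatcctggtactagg
Mmp1b, chr9:7388027-7388126, - strand: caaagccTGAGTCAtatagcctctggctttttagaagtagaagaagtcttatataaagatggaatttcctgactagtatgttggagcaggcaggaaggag
Mmp3, chr9:7445722-7445821, + strand: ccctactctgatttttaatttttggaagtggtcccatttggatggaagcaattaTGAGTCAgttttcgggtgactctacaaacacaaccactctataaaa
Mmp1a, chr9:7464041-7464140, + strand: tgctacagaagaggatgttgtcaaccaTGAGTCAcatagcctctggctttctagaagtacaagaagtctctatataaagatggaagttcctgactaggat
Mmp10, chr9:7502242-7502341, + strand: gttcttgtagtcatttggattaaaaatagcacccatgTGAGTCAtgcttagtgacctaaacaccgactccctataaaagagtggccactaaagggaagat
Mmp8, chr9:7558329-7558428, + strand: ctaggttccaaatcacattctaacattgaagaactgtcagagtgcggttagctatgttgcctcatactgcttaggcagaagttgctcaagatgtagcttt
Mmp27, chr9:7571296-7571395, + strand: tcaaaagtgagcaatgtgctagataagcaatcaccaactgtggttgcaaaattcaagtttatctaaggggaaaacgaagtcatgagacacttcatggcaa
Mmp20, chr9:7628131-7628230, + strand: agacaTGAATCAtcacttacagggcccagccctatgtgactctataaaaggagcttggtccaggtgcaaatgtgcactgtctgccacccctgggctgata
Mmp7, chr9:7691990-7692089, + strand: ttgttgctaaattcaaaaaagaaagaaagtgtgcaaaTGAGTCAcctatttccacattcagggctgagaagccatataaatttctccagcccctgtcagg

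Of these 10 genes 8 held the motif within 250 bases before a start, at 35 to 95 bases from it, and 7 of the 8 had TGAGTCA or TGACTCA. Mmp20 had TGAATCA, and Mmp8 and Mmp27 had no match in this window. The motif was in 6.75% of the 32851 windows of all genes, and in 0 of 20 Mmp, Adamts and Timp genes outside the cluster that the table holds. The 8 and the 0 count genes with any start allowed, whereas the 6.75% is a share of single windows, so the units differ. A match is a description of the letters and no evidence of binding.

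Of the 10 genes of the cluster 1 rose and 0 fell in limma (2 and 0 at an unadjusted p under 0.05), beside 17.4% and 7.36% of all genes, and the median change was -0.01. Mmp3, stromelysin-1, which cuts proteoglycans and activates other proenzymes, measured 1.22, 1.30, 1.41 and 1.77 on labelled KO arrays, against 0.59, 0.62 and 1.02 on control arrays. The groups did not overlap, and the change was 0.52 (SE 0.18, adjusted p = 0.0159), at signals near the bottom of the scale. Mmp3 did not pass when control array 1 (adjusted p = 0.0843) or 2 (adjusted p = 0.0750) was left out, nor with arrays centred (adjusted p = 0.0757). Mmp10, stromelysin-2, measured 3.01, 2.39, 3.09 and 3.26 on labelled KO arrays, against 2.27, 2.10 and 2.40 on control arrays. Only labelled KO array 2 lay within the control range, and the change of 0.52 (SE 0.24) narrowly missed the threshold (adjusted p = 0.0501). Without that array it passed (adjusted p = 0.0175), and without control array 2 the adjusted p was 0.169.

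Mmp7, matrilysin, which is known from epithelia and from pancreatic injury, measured 3.87, 2.53, 2.33 and 1.86 on labelled KO arrays and 1.71, 2.43 and 1.99 on control arrays. Labelled KO array 1 stood above all others, and the change of 0.44 (SE 0.37) did not pass (adjusted p = 0.256). The Mmp7 difference before subtraction, 0.61, was 0.20 without labelled KO array 1 and 1.16 without labelled KO arrays 3 and 4, where it passed (adjusted p = 0.0365). Mmp12, the macrophage elastase, measured 1.63, 1.74, 1.48 and 1.39 on labelled KO arrays and 1.74, 1.78 and 1.93 on control arrays, a change of -0.42 (SE 0.18) that did not pass (adjusted p = 0.340). The ductal mean was 4.72, 4.49, 4.30 and 4.43 on labelled KO arrays and 4.02 to 4.45 on control arrays, with 2 of 6 markers higher and 1 lower. Within the labelled KO group, Mmp7 and the ductal and macrophage means were highest on array 1. So were the mesenchymal, lymphoid and endothelial means (4.63, 3.52 and 4.16), whereas the acinar, neutrophil and islet endocrine means were highest on array 4. The ductal mean was lowest on array 3 and Mmp7 on array 4. The part of any of these cell types in the Mmp7 signal was not tested. A second, lower Mmp7 probe set measured 1.08, 1.09, 1.53 and 1.03 on labelled KO arrays 1 to 4 and was highest on array 3. The collagenases Mmp1a, Mmp1b, Mmp8 and Mmp13, which open the triple helix of fibrillar collagen, lay between 0.58 and 1.67 on labelled KO arrays and between 0.54 and 1.24 on control arrays, and 0 of the 4 passed in limma, also at an unadjusted p under 0.05. Mmp20, the enamel protease, and Mmp27 did not pass either. Their signals lay between 1.12 and 1.62 on labelled KO arrays and between 1.08 and 1.63 on control arrays.

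**Figure D4:**
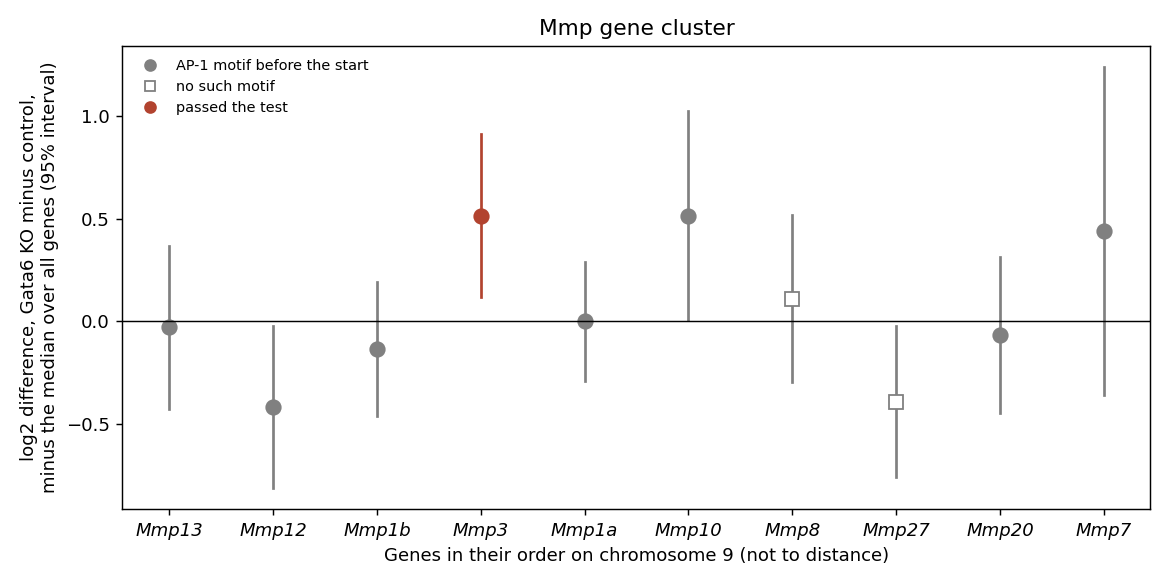
Log2 difference (labelled Gata6 KO minus control, minus the median over all genes) with 95% intervals for the 10 genes of the chromosome 9 cluster in their order on the chromosome; circles have the AP-1 motif before the start and open squares do not. Mmp3 (0.52) is the only gene that passed, and Mmp10 (0.52) missed the threshold. The interval of Mmp10 lies above 0 and those of Mmp12 and Mmp27 lie below 0, although none of them passed. The intervals are not adjusted for the number of genes, and the test is on the difference before subtraction.

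The AP-1 genes themselves were read on the same arrays. Of 10 measured AP-1 and Ets factors 4 fell and 1 rose (50% called, against 24.7% of all genes). Fos measured 3.50, 3.22, 3.75 and 3.12 on labelled KO arrays, against 7.58, 6.63 and 6.44 on control arrays (change -3.65, SE 0.27, adjusted p = 3.12e-06), and Jun changed by -1.68 (SE 0.23, adjusted p = 4.45e-04). Fosl2, a Fos relative, measured 4.29 to 4.42 on labelled KO arrays and 2.90 to 3.23 on control arrays (change 1.08, SE 0.20, adjusted p = 5.11e-04). The part of AP-1 in the Mmp signals was not tested.

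Of the Mmp genes outside these groups, Mmp23 and Mmp19 rose. Mmp23, which unlike most family members lacks the hemopexin domain and carries an amino-terminal anchor, measured 2.15, 2.03, 2.81 and 2.71 on labelled KO arrays, against 1.19, 1.61 and 1.56 on control arrays. The groups were apart, with a change of 0.80 (SE 0.24, adjusted p = 0.00963), and Mmp23 did not pass when control array 1 (adjusted p = 0.0636) or labelled KO arrays 3 and 4 (adjusted p = 0.0572) were left out. Mmp19, which cuts basement membrane proteins, measured 3.32, 2.72, 2.26 and 3.02 on labelled KO arrays, against 1.61, 1.80 and 2.19 on control arrays. Labelled KO array 3 lay just above control array 3, and the change was 0.80 (SE 0.26, adjusted p = 0.0163). Leaving out control array 1 (adjusted p = 0.0880) or 2 (adjusted p = 0.0640) ended the Mmp19 call, as did centring (adjusted p = 0.0621). Mmp23 overlaps Mib2 and Mmp19 overlaps Tmem198b in the RefSeq table. Mmp21, known from left-right patterning of the embryo, measured 1.63 to 1.90 on labelled KO arrays and 1.22 to 1.41 on control arrays, and its change of 0.27 (SE 0.18) did not pass (adjusted p = 0.0882) although the groups did not overlap. Mmp11, stromelysin-3, and Mmp28, epilysin, did not pass, with values from 2.31 to 3.58 on labelled KO arrays and from 2.04 to 2.92 on control arrays.

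Among the Adamts genes that cut the large proteoglycans aggrecan and versican, 2 of 7 rose, beside 17.4% of all genes called higher. Adamts5, the main aggrecanase of mouse cartilage, measured 2.00, 1.87, 2.15 and 1.88 on labelled KO arrays, against 1.05, 0.65 and 0.90 on control arrays. The groups were far apart for their spread, with means of 1.97 ± 0.13 (SD, n = 4) and 0.87 ± 0.20 (SD, n = 3). The change was 0.94 (SE 0.18, adjusted p = 6.77e-04), the smallest p of the 44 members, and the call held under all 16 alternatives that tested it, with adjusted p up to 0.00814. Adamts15, a versicanase, measured 2.04, 2.08, 2.23 and 2.44 on labelled KO arrays, against 1.64, 1.71 and 1.43 on control arrays. Its groups did not overlap and its change was 0.44 (SE 0.20, adjusted p = 0.0387), but Adamts15 did not pass with arrays centred (adjusted p = 0.174) or when any one array except labelled KO array 1 was left out, with adjusted p from 0.0536 (without labelled KO array 2) to 0.144 (without control array 3).

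Adamts1, the neighbour of Adamts5 on chromosome 16 and likewise a versicanase, measured 2.94, 2.46, 2.37 and 2.55 on labelled KO arrays and 2.38, 2.28 and 2.34 on control arrays, with a change of 0.08 (interval -0.38 to 0.53). Adamts4, the other classical aggrecanase, measured 1.93 to 2.58 on labelled KO arrays and 2.05 to 2.73 on control arrays, with a change of -0.24 (interval -0.77 to 0.29). Adamts9, a versicanase needed in heart and vessel development, measured 4.28, 4.37, 3.70 and 4.32 on labelled KO arrays and 3.44, 4.38 and 4.04 on control arrays, with a change of 0.05 (interval -0.50 to 0.60). Adamts8, the chromosome 9 neighbour of Adamts15, and Adamts20 lay between 1.35 and 2.73 on labelled KO arrays and between 1.23 and 2.49 on control arrays, and neither passed. Of their substrates, versican (Vcan, change 0.35, adjusted p = 0.0610) and aggrecan (Acan, change -0.33, adjusted p = 0.627) did not pass.

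Adamts7 and Adamts12, a closely related pair that cuts cartilage oligomeric matrix protein, both rose. Adamts12 measured 2.58, 2.36, 2.91 and 1.78 on labelled KO arrays, against 1.53, 1.26 and 1.67 on control arrays, with a change of 0.75 (SE 0.26, adjusted p = 0.0183). Adamts7 measured 2.03, 2.15, 3.12 and 2.68 on labelled KO arrays, against 1.71, 1.77 and 1.69 on control arrays, with a change of 0.61 (SE 0.26, adjusted p = 0.0418). The groups were apart for both genes, and labelled KO array 3 was the highest for both. Adamts12 did not pass when control array 1 (adjusted p = 0.0587) or 2 (adjusted p = 0.0891) was left out, and Adamts7 when control array 1 (adjusted p = 0.118), 2 (adjusted p = 0.100) or 3 (adjusted p = 0.110) or labelled KO array 3 (adjusted p = 0.0999) or 4 (adjusted p = 0.0713) was left out. With arrays centred neither passed (adjusted p = 0.0776 for Adamts12 and adjusted p = 0.129 for Adamts7).

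None of the other Adamts genes passed. The procollagen N-proteinases Adamts3 and Adamts14, which remove the amino-terminal propeptide of fibrillar procollagens, gave changes of 0.27 and 0.26 (adjusted p = 0.174 and adjusted p = 0.151). Adamts13, which cuts von Willebrand factor in blood, measured 1.91, 2.06, 2.87 and 3.00 on labelled KO arrays and 2.60, 2.65 and 2.95 on control arrays. Labelled KO arrays 1 and 2 lay below every control array and arrays 3 and 4 did not, and the change of -0.44 (SE 0.28) did not pass (adjusted p = 0.509). The Adamts13 difference before subtraction, -0.27, was -0.09 without labelled KO array 1 and -0.75 without arrays 3 and 4, where it was called lower (adjusted p = 0.0349). Adamts18, with a poorly known substrate, measured 1.76, 2.08, 1.81 and 1.90 on labelled KO arrays and 2.40, 2.06 and 2.31 on control arrays, a change of -0.53 (SE 0.20) that passed after centring (adjusted p = 0.0407) but not before it (adjusted p = 0.192). Adamts6, Adamts10, Adamts16, Adamts17 and Adamts19 lay between 1.19 and 3.19 on labelled KO arrays and between 0.90 and 3.25 on control arrays, with adjusted p of 0.342 or more.

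Other genes of extracellular proteolysis were counted beside the members. In a list of 9 genes, drawn up as other inhibitors and uptake receptors of matrix metalloproteinases, 3 fell and 0 rose (33.3%, against 24.7% of all genes). The 3 were the testicans, matrix proteoglycans of neural and endocrine tissue. Whether each testican acts as an inhibitor was not examined here. Spock2 measured 3.90, 4.39, 3.07 and 4.19 on labelled KO arrays, against 6.99, 6.64 and 6.18 on control arrays (change -2.88, SE 0.30, adjusted p = 2.96e-05). Spock1 changed by -1.81 (SE 0.28, adjusted p = 9.14e-04) and Spock3 by -0.89 (SE 0.21, adjusted p = 0.0206), on the arrays on which 14 of 15 islet endocrine markers were lower too. Reck, a membrane-anchored inhibitor, did not pass (change -0.35, adjusted p = 0.648).

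Of 9 genes of plasminogen activation, the protease cascade that can activate proenzymes of the Mmp family, 2 rose and 0 fell. That share, 22.2%, was near the 24.7% of all genes called. The urokinase gene Plau measured 3.52, 3.72, 3.67 and 3.36 on labelled KO arrays, against 1.65, 2.41 and 1.84 on control arrays (change 1.44, SE 0.23, adjusted p = 2.51e-04), and the plasminogen receptor gene Plgrkt changed by 0.60 (SE 0.23, adjusted p = 0.0290). The urokinase receptor gene Plaur did not pass (change 0.39, adjusted p = 0.0535). Of 9 ADAM membrane proteases 2 rose and 0 fell, again 22.2% against 24.7% of all genes. The 2 were the sheddases Adam10 (change 1.04, SE 0.25, adjusted p = 0.00340) and Adam17 (change 1.19, SE 0.29, adjusted p = 0.00430). Adam17, which TIMP3 inhibits, rose while Timp3 fell, and a link between these changes was not tested. Of 6 ADAMTS-like genes, which lack a protease domain, 1 rose (16.7%), Adamtsl3 (change 0.74, SE 0.24, adjusted p = 0.0135). Among 4 propeptide convertases, which cut the prodomain from several of these enzymes, limma called 0 (0 also at an unadjusted p under 0.05), Furin included (change 0.19, adjusted p = 0.246). Among 7 astacin proteases and procollagen enhancers limma called 0 as well, with 1 at an unadjusted p under 0.05, the meprin gene Mep1a (change 0.42).

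Of 15 matrix substrates 5 rose and 0 fell (33.3%, against 24.7% of all genes). Col3a1, a fibrillar collagen, measured 3.75 to 6.43 on labelled KO arrays, highest on array 1 and lowest on array 4, against 2.75 to 3.42 on control arrays (change 1.90, SE 0.44, adjusted p = 0.00415). Col1a1 changed by 1.69 (SE 0.42, adjusted p = 0.00541) and Col1a2 by 1.46 (SE 0.35, adjusted p = 0.00401), both highest on labelled KO array 1, as Mmp2 and Timp2 were. The type IV collagen genes Col4a1 and Col4a2 of the basement membrane gave changes of 0.00 and 0.09 and did not pass (adjusted p = 0.626 and adjusted p = 0.525). The median change was 0.37 over the substrates and -0.35 over the list of other inhibitors and uptake receptors. It was 0.39 over plasminogen activation and 0.08 over the 44 members, against 0.00 over all genes.

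**Figure D5:**
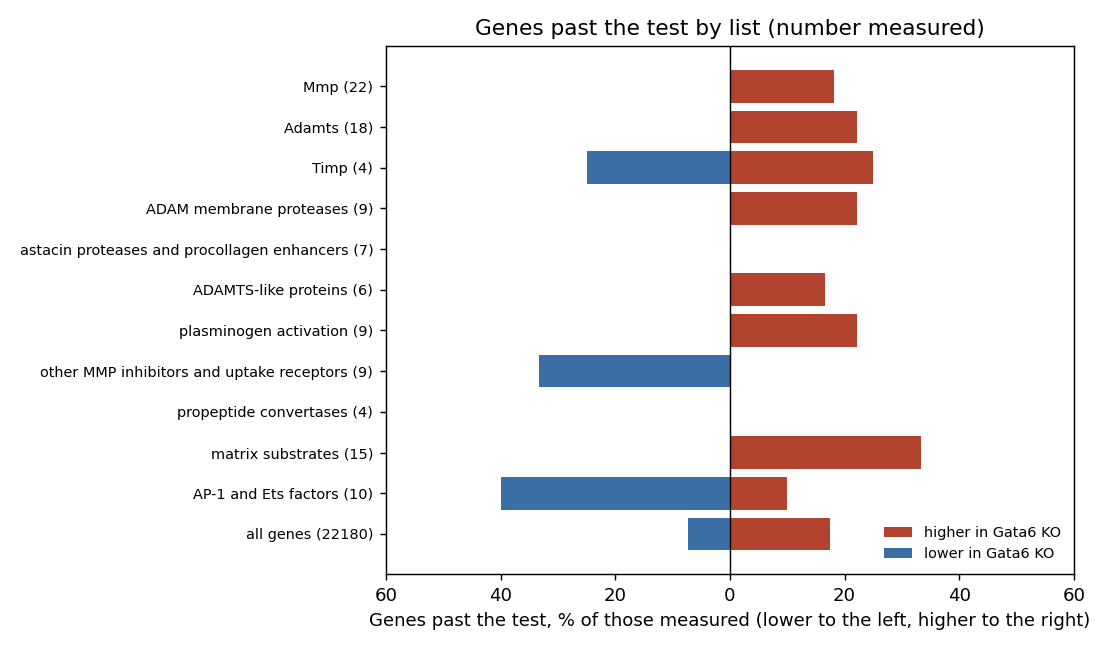
Share of measured genes past the test in each list, as a percentage, with genes higher on labelled Gata6 KO arrays to the right and lower ones to the left; the number measured is in parentheses. Of Mmp genes 18.2% and of Adamts genes 22.2% were called higher and 0 lower, against 17.4% and 7.36% of all genes. The calls in the list of other inhibitors and uptake receptors are all on the lower side and are the testicans.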

How the data were processed

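The deposited log2 values were made by the authors with RMA, as the submitters' processing notes state, where Transcriptome Analysis Console also appears and no version is given; the sources used here name no genome build. Each array is 1 pool of mice, and the number of arrays limits the precision. Of 41345 probe sets 23521 had 1 gene symbol in the platform annotation; per gene the one with the highest mean over the 7 arrays was used, which left 22180 genes. The 44 members all had an identifier in the RefSeq table of GRCm38.p6; 30 had a promoter sequence there. Differences were fitted over all genes with limma 3.58.1 in R 4.3.3 (lmFit, eBayes with a trend) without a covariate, two-sided, with Benjamini-Hochberg adjustment. Intervals are 95%. The exact permutation test used 35 splits, with a smallest p of 0.0286. Members, lists and alternatives were chosen with earlier results of these data known. Full values are given for members past the threshold, every Timp and the 6 members with the highest mean signal; values of 9 further members (Mmp7, Mmp9, Mmp10, Mmp12, Mmp21, Adamts1, Adamts4, Adamts13 and Adamts18) were added after they were seen. Of each other list up to 3 members with the smallest p, and of cell type lists also the 2 most abundant, were to be named. For most cell type lists this was not carried out in full, and counts and means are given instead. Acan, Vcan, Col4a1, Col4a2, Reck, Rgs5, S100a8, S100a9, Pecam1, Cdh5 and the genes overlapping members were named after their values were seen. Alternatives were other scalings, filters, probe set summaries, moderation, array weights, a replicate block and arrays left out; a block for low Xist was chosen after seeing the data. The tests were tried on simulated data. Figures were drawn with matplotlib 3.10.9.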

Additional observations from a re-analysis of the deposited data

Results flagged for a closer look

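In the group labelled Gata6 KO, 1 array stood apart from the other 3 for 6 of 45 genes tested (44 members and Gata6), by Dixon's test at its 95% critical value for 4 samples. Chance flags about 1 in 20 such groups, and arrays of 1 group share their preparation across genes. Array 3 was the one apart for Mmp24 (4.06, high), Mmp16 (2.15, high) and Adamts9 (3.70, low). Array 4 was the one apart for Mmp13 (0.64, low), Mmp1b (0.84, low) and Gata6 (5.01, low). None of these 6 genes passed the test between the groups.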

How the results depend on the processing

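All 10 called members kept their sign under the 17 alternatives, where tested, and Timp2 and Adamts5 also kept their call under each. Against 9 members called higher and 1 lower, centring the arrays on their medians gave 3 and 2, repeated quantile normalization 4 and 2, and leaving out labelled Gata6 KO arrays 3 and 4 together 8 and 2. Leaving out 1 array at a time gave 3 to 9 higher and 0 to 1 lower, with 3 and 0 without control array 1 and 4 and 1 without control array 2; fewer arrays were then fitted. Whether arrays of the same number form pairs is not known. Correlations of same-numbered deviations were 0.0976, 0.00432 and 0.115, and those of differently numbered arrays ranged from -0.141 to 0.0729. With the replicate block, which drops labelled KO array 4, counts were 9 and 1, but 8 of the 10 calls were kept: Adamts15 (adjusted p = 0.0874) and Adamts7 (adjusted p = 0.0572) lost theirs, and Mmp14 (adjusted p = 0.0249) and Mmp24 (adjusted p = 0.0393) gained one. The Gata6 difference (0.54, adjusted p = 0.0622) was 0.31 after centring (adjusted p = 0.344) and 0.47 after quantile normalization (adjusted p = 0.103). It passed without the 40% lowest genes (0.54), without a trend (0.54), with array weights (0.57), with the replicate block (0.62), without labelled KO arrays 3 and 4 (0.64) and without labelled KO array 4 (0.62, adjusted p = 0.0333), and lay between 0.46 and 0.62 with 1 array left out. The difference before subtraction changed its sign under some alternative for 16 of the 44 members, 0 of them called; 12 of the 16 were given by range above. Of the other 4, those that turned below 0 by rescaling or without labelled KO arrays 3 and 4 were Adamts9 (-0.014 centred), Mmp9 (-0.073 centred, -0.061 after quantile normalization, -0.11 without labelled KO arrays 3 and 4) and Timp4 (-0.15 centred, -0.047 after quantile normalization). With 1 array left out, the range was -0.042 to 0.43 for Adamts9, -0.0029 to 0.31 for Mmp9, -0.016 to 0.24 for Timp4 and -0.21 to 0.13 for Adamts4. The cause of these shifts was not tested. Signals of most members were near the bottom of the scale, which limits what differences can be seen there.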

Other observations

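A second probe set was present for 4 members and was not used above. Its mean log2 signal on labelled Gata6 KO and control arrays was 2.17 and 1.68 for Adamts14, 1.71 and 1.47 for Adamts8, 1.73 and 1.45 for Mmp11, and 1.18 and 0.93 for Mmp7. A probe set that names several genes, Mmp24 among them, measured 3.54, 3.20, 3.13 and 3.32 on labelled KO arrays and 3.68, 4.16 and 3.43 on control arrays. Its difference was -0.46, against 0.65 for the probe set of Mmp24 alone, and what it reads cannot be assigned to 1 gene.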
